A study of Mus musculus with 6 samples.

Results

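The oxidative phosphorylation (OXPHOS) genes described here are the nuclear genes whose symbols begin with Ndufa, Ndufb, Ndufc, Ndufs, Ndufv, Uqcr, Cox4 to Cox8 or Atp5, together with Sdha, Sdhb, Sdhc, Sdhd, Cycs and Cyc1. Of the 24532 genes in the deposited table, 94 matched, and 91 of them had at least 60 counts summed over the libraries. The 3 left out were Cox6b2, with between 0 and 13 counts per library, and Cox7b2 and Cox8c, with 0 counts in every library. All 91 passed the filter on low counts that left 13801 genes for testing. They comprised 36 subunits of complex I, 7 complex I assembly factors (Ndufaf genes), 4 subunits of complex II, 9 of complex III, cytochrome c, 17 genes of complex IV, 15 subunits of complex V, and 2 genes, Atp5s and Atp5sl, that carry the Atp5 name without coding for a subunit of the enzyme. Ndufa4 and its relative Ndufa4l2 were counted with complex IV, where the NDUFA4 protein resides.

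In the inner mitochondrial membrane, complex I oxidizes NADH and complex II oxidizes succinate, and both pass electrons through ubiquinone to complex III, then through cytochrome c to complex IV, which reduces oxygen. Complexes I, III and IV pump protons, and complex V, the ATP synthase, uses the proton gradient to make ATP. The complexes are built from nuclear and mitochondrially encoded subunits, and oxidative fibers of skeletal muscle hold more of them than glycolytic fibers. The subunits encoded in mitochondrial DNA were not analysed here.

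The RNA came from the gastrocnemius (GAS) muscle of male mice of 20 weeks, whose strain is given as C57BL/6. There were 3 WT animals (Sirt6 flox/flox) and 3 Sirt6 KO animals (Sirt6 flox/flox with Myl1-Cre), so the floxed allele was present in both groups. The study's methods and reporting summary name different floxed lines, the latter with a mixed strain name. Whether the animals differed in strain was not tested. The study describes this Cre as working chiefly in differentiated fast fibers, and the RNA was taken from whole muscle, so other fibers and cells contributed too. Bulk libraries cannot tell apart fewer oxidative fibers from less RNA per fiber. The libraries held between 44845763 and 63016899 counts, and a member's count in a single library lay between 15 and 183509. Levels are given as CPM, counts relative to the TMM-adjusted library size, when libraries are compared for a gene, and as TPM when genes are compared, because TPM is scaled for gene length.

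Sirt6 itself went against the labels: its level in the libraries labelled Sirt6 KO was 7.81, 7.44 and 6.68 CPM, above the 2.77, 2.23 and 2.88 CPM of the WT libraries (log2 fold change 1.48, adjusted p = 0.0113, edgeR quasi-likelihood test). The table sums reads over the whole gene and so does not show whether the floxed exons were missing, and the groups are named by their labels throughout. Directions below are those of the libraries labelled Sirt6 KO against the libraries labelled WT. The libraries also stood apart in a way that crossed the groups. The summed level of 10 slow muscle genes was 4210, 3470 and 164 CPM in WT 1, 2 and 3 and 426, 2470 and 584 CPM in KO 1, 2 and 3, so WT 3 was low among the WT libraries and KO 2 was high among the KO libraries. The beta-globin gene Hbb-bt split the same libraries. It was at 55.5, 52.1 and 31.5 CPM in WT 1, WT 2 and KO 2 and at 0 in the other 3. Hbb-b2 was the reverse, at 0 in WT 1, WT 2 and KO 2 and at 9.32, 25.9 and 17.2 CPM in WT 3, KO 1 and KO 3. What lies behind this split, strain included, was not tested. The 10 fast muscle genes summed to between 150000 and 257000 CPM and defined the tissue in every library, and of the heart markers Nppa, Nppb and Myl7 were at 0.

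Of the 91 genes, 8 were lower and 3 were higher in Sirt6 KO than in WT with an adjusted p below 0.05 (edgeR's quasi-likelihood test, Benjamini-Hochberg adjustment over all genes tested). Across all 13801 genes tested, 8.39% were lower and 7.85% were higher. The share of the OXPHOS genes called lower, 8.79%, was close to that background, and the share called higher, 3.30%, was below it. The genes called lower were Cycs, the electron carrier cytochrome c, the complex I subunits Ndufv2, Ndufb5, Ndufb6 and Ndufc2, the complex I assembly factor Ndufaf4, the complex III subunit Uqcrb, and Atp5s. The genes called higher were the complex I subunits Ndufa2 and Ndufa13 and the complex III subunit Uqcr10. No gene of complex II, IV or V passed the test. The log2 fold changes of all 91 lay between -0.94 and 0.54, with standard errors between 0.10 and 0.46, and 56 were negative and 35 positive. Their median was -0.064, beside -0.021 over all genes tested. The 3 KO libraries were all below the 3 WT libraries for 13 of the 91 genes (14.3%) and all above them for 8 (8.79%), against 19.6% and 20.3% of all genes tested.

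**Figure D1:**
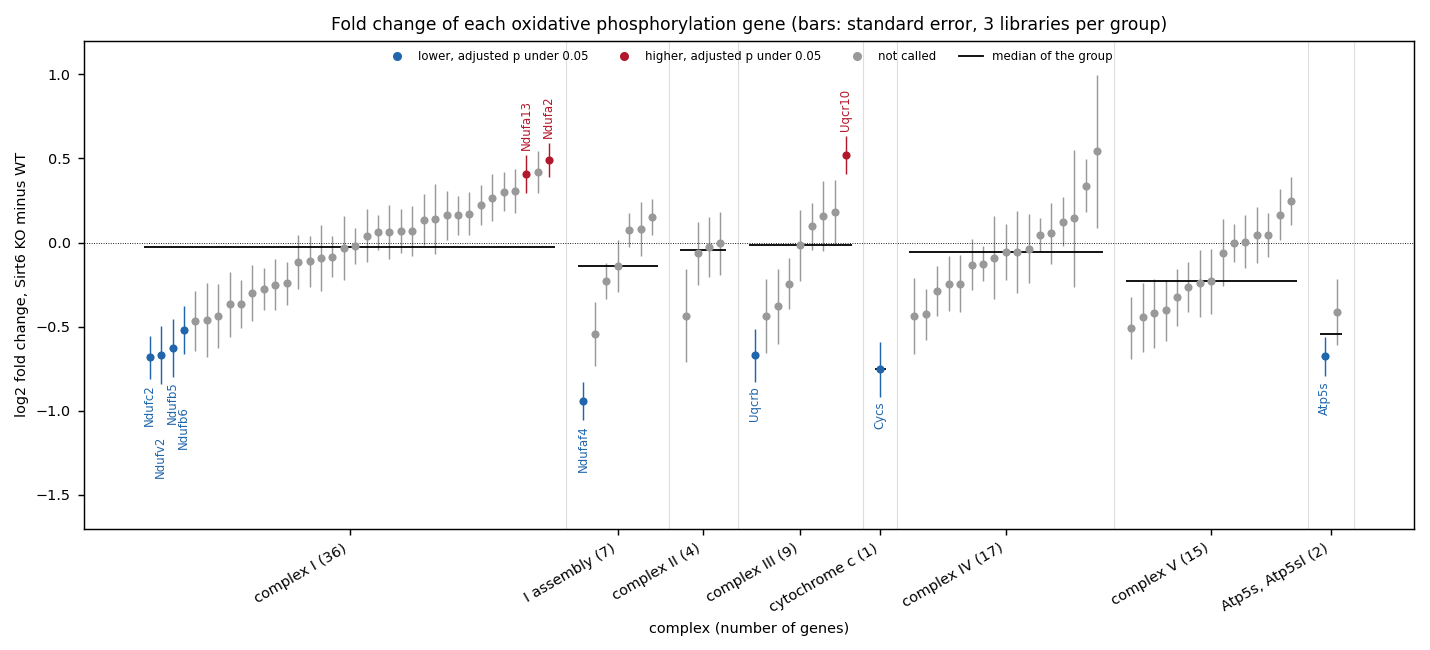
Log2 fold change (Sirt6 KO minus WT) of each of the 91 genes with its standard error from edgeR, ordered within each complex, with 3 libraries per group; the black line is the median of the group and colored points passed an adjusted p of 0.05. Blue points (8 lower) and red points (3 higher) lie in complexes I and III, the assembly factors, cytochrome c and Atp5s, and none lies in complexes II, IV or V.

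The 11 calls were sensitive to single libraries and to the base composition of the transcripts. With WT 3 left out, 17 members (18.7%) were lower and 4 (4.4%) higher, against 15.7% and 16.7% of all genes in that fit. With KO 1 or KO 3 left out, no member passed in either direction, and over all genes 8 and 13 passed. Without KO 2, WT 1 or WT 2, between 1 and 3 members were lower (3.3%, 2.2% and 1.1%) and none was higher. Over all genes in those fits, 3.14%, 1.85% and 1.09% were lower and 3.06%, 1.29% and 0.685% higher. Ndufaf4 passed in 4 of the 6 fits that left out 1 library, Atp5s in 3, Ndufc2 in 2 and the other 8 genes in 1 each, and no fold change of the 11 changed sign. The members called lower had GC contents between 39.5% and 48.8%, and those called higher between 51.8% and 60.4%. After a correction of each library for a trend over GC content, Ndufc2 and Ndufaf4 were still lower and no member was higher, against 3.52% lower and 3.41% higher among all 13711 genes in that fit. With the beta-globin split as a covariate, an alternative added after the data were seen, 8 members were lower and 7 higher, beside 9.58% and 8.56% of all genes, and all 11 members called without the covariate were among them.

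**Figure D2:**
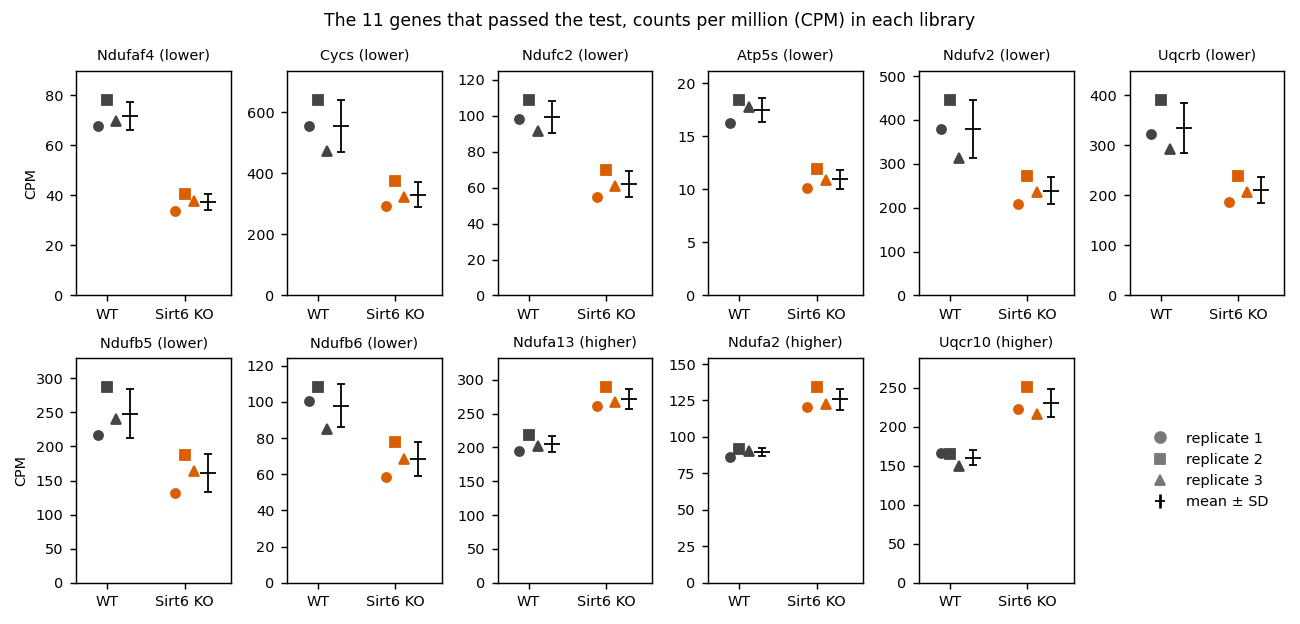
Level in CPM of each of the 11 genes that passed the test, by library; the symbol gives the replicate number, and the bar is the mean with the SD over 3 libraries. In each panel the 3 Sirt6 KO libraries lie on one side of the 3 WT libraries, and KO replicate 2 (square) is the highest of the KO libraries for all 11.

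The level of most OXPHOS genes varied with this split of the libraries. KO 2 was the highest of the KO libraries for 83 of the 91 genes, against 36.1% of all genes tested, and WT 3 was the lowest of the WT libraries for 72, against 37.4%. Both held for 70 of the 91, against 19.1% of all genes tested, including all 4 genes of complex II, all 9 of complex III, 28 of 36 of complex I, 14 of 15 of complex V and 13 of 17 of complex IV. Among the 7 assembly factors it held for none. The 91 genes took 7.41%, 7.64% and 5.06% of all TPM in WT 1, 2 and 3 and 5.23%, 6.43% and 5.32% in KO 1, 2 and 3. The mean was 6.70% ± 1.43 in WT and 5.66% ± 0.665 in Sirt6 KO (SD, n = 3), the groups overlapped, and WT 3 was the lowest of all 6 libraries. Within the 3 libraries with Hbb-bt (2 WT, 1 KO), the median difference over the 91 genes was 0.054 on the log2 scale, and 42 were lower in Sirt6 KO. Within the other 3 (1 WT, 2 KO), it was -0.047, and 47 were lower. The part of fiber type, or of any other difference between these libraries, in the levels of the OXPHOS genes was not tested.

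**Figure D3:**
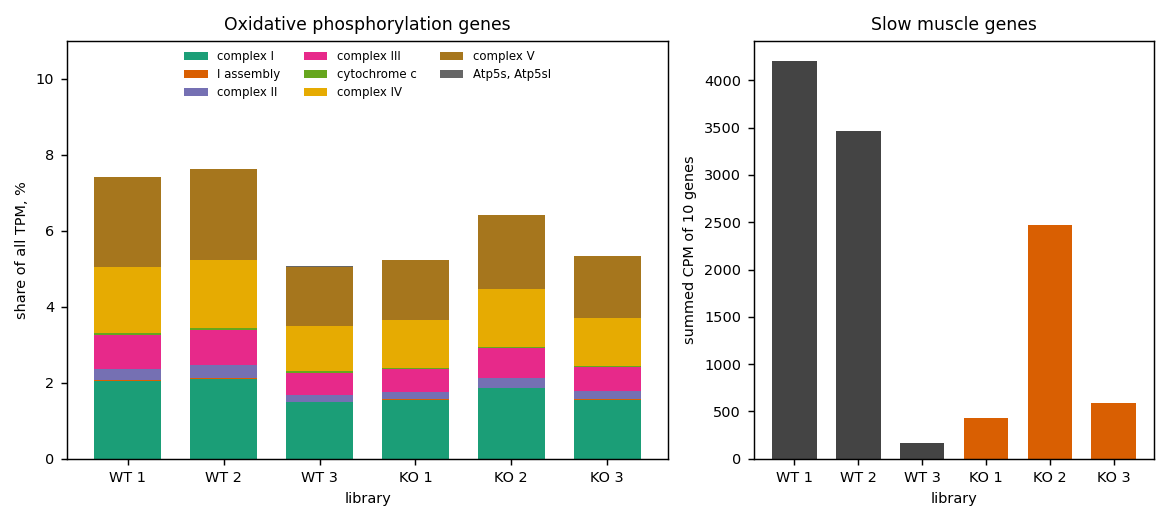
Left, the share of all TPM taken by the 91 genes in each library, stacked by complex; right, the summed CPM of 10 slow muscle genes in the same libraries. The OXPHOS share is highest in WT 1, WT 2 and KO 2 (6.43% to 7.64%), the libraries in which the slow muscle genes are also highest (2470 to 4210 CPM).

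**Figure D4:**
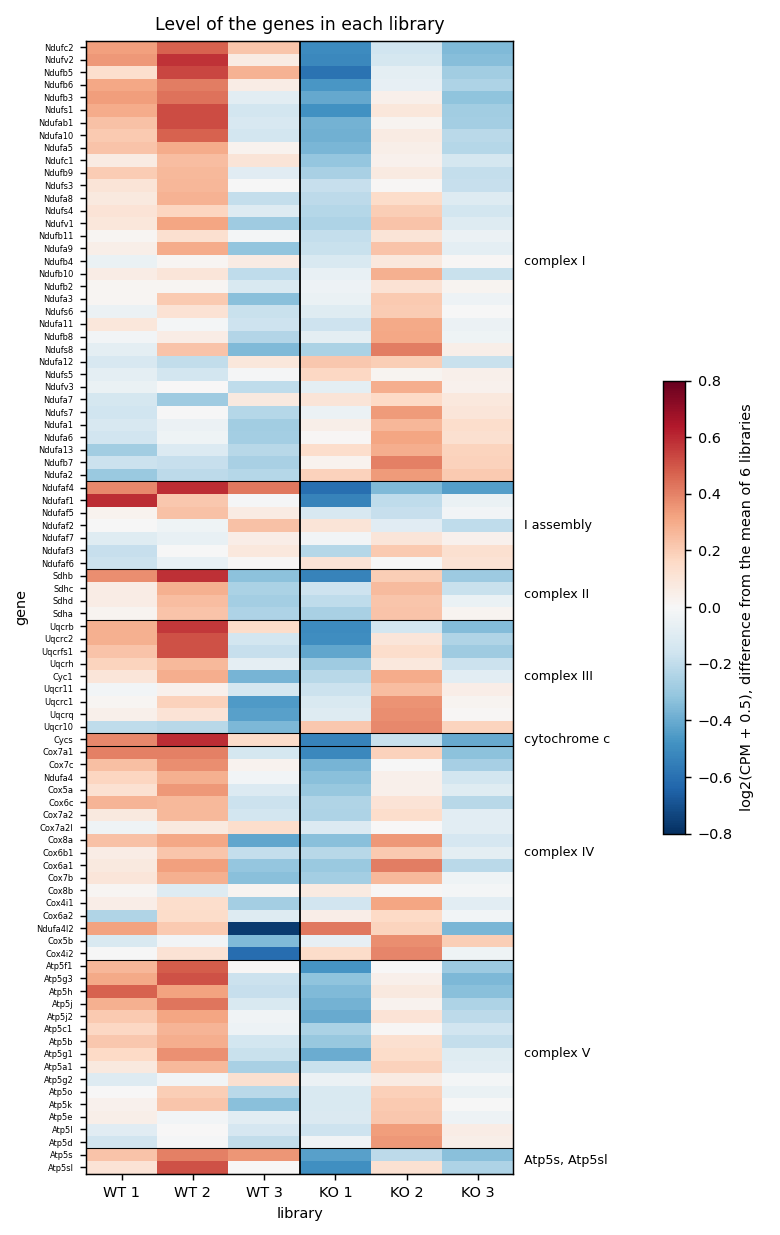
Level of the genes named on the axis in each library as log2(CPM + 0.5) minus the mean of the 6 libraries, grouped by complex and ordered by fold change; the color scale ends at 0.8 in either direction. Most genes are red in WT 1, WT 2 and KO 2 and blue in the other libraries, whereas Ndufc2, Ndufv2, Ndufaf4, Uqcrb, Cycs and Atp5s are blue in all 3 KO libraries.

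Complex I, the NADH dehydrogenase, held 4 lower (11.1%) and 2 higher (5.56%) genes among 36, against 8.39% and 7.85% of all genes. Its median log2 fold change was -0.025. The 7 nuclear core subunits, which carry the flavin and the iron-sulfur clusters, had a median of -0.24, and the 29 accessory subunits had a median of 0.041. Ndufv2, an iron-sulfur core subunit of the NADH-oxidizing module, was the core subunit that passed the test. Its level was 379, 446 and 313 CPM in WT and 209, 271 and 236 CPM in Sirt6 KO, so the groups did not overlap (log2 fold change -0.67 ± 0.17 SE, adjusted p = 0.0398, edgeR). After GC correction the difference was -0.41 with an adjusted p of 0.168 (edgeR).

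The other 6 core subunits did not pass, and their groups overlapped. Ndufs1, the large iron-sulfur subunit of the same module, was at 648, 757 and 476 CPM in WT and 376, 560 and 434 CPM in Sirt6 KO (log2 fold change -0.46 ± 0.22 SE, adjusted p = 0.180, edgeR); KO 2 lay above WT 3. Ndufs3, which belongs to the quinone-reducing module, differed by -0.24 ± 0.13 (log2, SE). Ndufv1, which binds NADH and the flavin, was at 429 ± 87.7 CPM in WT and 403 ± 69.8 CPM in Sirt6 KO (SD, n = 3). Ndufs7 and Ndufs8, iron-sulfur subunits on the path to ubiquinone, had positive log2 fold changes of 0.27 ± 0.14 and 0.14 ± 0.21 (SE), and that of Ndufs8 turned to -0.042 after GC correction. The core subunits thus spread on both sides of 0.

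Among the accessory subunits, Ndufc2, Ndufb5 and Ndufb6, all of the membrane arm, were lower. Ndufc2 was at 98.5, 109 and 91.2 CPM in WT and 55, 69.9 and 61.1 CPM in Sirt6 KO (log2 fold change -0.68 ± 0.13 SE, adjusted p = 0.0192, edgeR). Every KO library was below every WT library, and the value after GC correction was the same to 2 decimals (-0.68, adjusted p = 0.0342, edgeR). Ndufb5 was at 217, 287 and 240 CPM in WT and 132, 188 and 163 CPM in Sirt6 KO (log2 fold change -0.62 ± 0.17 SE, adjusted p = 0.0481, edgeR). Ndufb6 was at 101, 108 and 84.8 CPM in WT and 58.7, 77.5 and 68.5 CPM in Sirt6 KO. Its log2 fold change of -0.52 ± 0.15 (SE) had an adjusted p of 0.04998 (edgeR), just inside the threshold. After GC correction the log2 fold changes were close to these, -0.59 for Ndufb5 and -0.50 for Ndufb6, but neither passed (adjusted p = 0.0755 and 0.0739, edgeR).

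Ndufa2, an accessory subunit of the matrix arm, moved the other way, from 86.3, 91.6 and 90.3 CPM in WT to 121, 134 and 123 CPM in Sirt6 KO (log2 fold change 0.49 ± 0.10 SE, adjusted p = 0.0229, edgeR). Ndufa13, an accessory subunit also known as GRIM-19, rose from 195, 219 and 202 CPM to 261, 289 and 267 CPM (log2 fold change 0.41 ± 0.11 SE, adjusted p = 0.0488, edgeR). The WT libraries were close together for both genes, with SDs of 2.77 and 12.2 CPM. After GC correction the log2 fold changes were 0.39 (adjusted p = 0.0580, edgeR) and 0.14 (adjusted p = 0.441, edgeR). The other 24 accessory subunits did not pass. The largest of their fold changes belonged to Ndufb3, at -0.46 ± 0.18, and Ndufb7, at 0.42 ± 0.12 (log2, SE), both chosen after their values were seen. Genes of complex I thus passed the test in both directions.

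The 7 complex I assembly factors, which help to build the complex and are not part of the finished enzyme, were far less abundant than the subunits. Their WT levels lay between 16.1 and 54.2 TPM with a median of 25.9 TPM, beside a median of 492 TPM for the complex I subunits. Ndufaf4, a factor of early assembly, had the most negative fold change of all 91 genes. It was at 67.7, 78.2 and 69.6 CPM in WT and 33.9, 40.5 and 37.9 CPM in Sirt6 KO, and the mean fell by 47.8% (log2 fold change -0.94 ± 0.11 SE, adjusted p = 0.0123, edgeR). The exact permutation test over the 6 libraries gave p = 0.1, the smallest that 3 against 3 allow, as it did for each of the 11 genes. After GC correction the log2 fold change was -0.60 (adjusted p = 0.0351, edgeR).

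The other 6 assembly factors did not pass. Ndufaf1 (-0.54 ± 0.19) and Ndufaf5 (-0.23 ± 0.11 on the log2 scale, SE) were below WT in every KO library, and the factor with the most positive value was Ndufaf6, at 16.5 ± 1.07 CPM in WT and 18.3 ± 0.872 CPM in Sirt6 KO (SD, n = 3). The median over the 7 was -0.14. Unlike the subunits, the assembly factors did not share the library pattern. Their medians, as log2 differences from the mean of the 6 libraries, were -0.0059, -0.0053 and 0.069 in WT 1, 2 and 3. In KO 1, 2 and 3 they were -0.13, -0.098 and -0.020.

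The promoters of the genes called lower are of interest because the study examined CREB, a factor that binds the cAMP response element (CRE), and because NRF1 is a known activator of respiratory chain genes. RefSeq promoter windows on GRCm38.p6, from 250 bases before to 50 bases after the start of the gene, were matched for 75 of the 91 genes. Windows were searched on both strands for the CRE (TGACGTCA) and an NRF1 core (GCATGCGC). The 2 members that stayed lower after GC correction, and Cycs, are shown, with CRE and NRF1 letters in capitals. Ndufaf4 lies at chr4:24898083-24905001 and its window at chr4:24897833-24898132, plus strand. Ndufc2 lies at chr7:97400003-97407800 and its window at chr7:97399753-97400052, plus strand. Cycs lies at chr6:50562563-50566569 and its window at chr6:50566520-50566819, minus strand.
Ndufaf4: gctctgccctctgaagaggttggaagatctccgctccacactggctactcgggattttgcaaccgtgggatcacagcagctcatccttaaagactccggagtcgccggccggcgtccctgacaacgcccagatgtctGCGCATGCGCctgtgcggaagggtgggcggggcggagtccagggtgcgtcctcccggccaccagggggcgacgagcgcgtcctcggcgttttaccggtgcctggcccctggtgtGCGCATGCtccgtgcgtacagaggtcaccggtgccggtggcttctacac
Ndufc2: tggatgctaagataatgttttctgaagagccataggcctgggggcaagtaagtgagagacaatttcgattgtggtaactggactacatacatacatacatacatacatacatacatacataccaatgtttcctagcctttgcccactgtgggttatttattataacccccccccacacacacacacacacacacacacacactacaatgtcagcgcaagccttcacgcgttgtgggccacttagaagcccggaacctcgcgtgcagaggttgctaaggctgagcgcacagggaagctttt
Cycs: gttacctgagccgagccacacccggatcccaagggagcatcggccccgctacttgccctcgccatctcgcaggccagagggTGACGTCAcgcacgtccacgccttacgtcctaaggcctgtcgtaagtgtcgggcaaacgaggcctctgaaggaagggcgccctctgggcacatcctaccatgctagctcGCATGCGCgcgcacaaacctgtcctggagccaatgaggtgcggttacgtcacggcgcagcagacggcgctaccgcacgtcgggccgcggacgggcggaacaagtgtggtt
The Cycs window holds a CRE that begins 169 bases before the start of the gene and an NRF1 core that begins 60 bases before it. The Ndufaf4 window holds overlapping NRF1 cores, read on either strand, that begin 113 and 111 bases before the start, and another just inside the gene. Neither sequence is in the Ndufc2 window.

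Over the 75 windows, the CRE was in 5 (6.67%), against 2.03% of all 27025 promoters in the table, and the NRF1 core was in 13 (17.3%), against 3.05%. Those promoters include genes not tested here. No set matched to the members for level or base composition was compared, so these shares do not show a trait particular to OXPHOS genes. The 5 genes with a CRE were Cycs, Uqcrfs1, Ndufa10, Ndufb2 and Ndufa11, of which Cycs was called lower, and their median log2 fold change was -0.37, beside -0.086 for the 70 members without one. The 13 genes with an NRF1 core had a median of -0.0033, beside -0.10 for the 62 without one, with 2 called lower, Cycs and Ndufaf4. With so few genes, counts of calls are not read against the 8.39% of all genes called lower, and nothing is drawn from these medians. A YY1 motif (AAGATGGCG) was in 8 windows (10.7%), against 1.64% of all promoters, an estrogen-related receptor (ERR) motif (AAGGTCA) in 8 (10.7%), against 5.38%, and an ETS motif of the GABP type (CCGGAAGT) in 5 (6.67%), against 4.31%. No gene with one of these 3 motifs was called. The GC box (GGGCGG) was in 33 (44.0%), against 38.2%, and 5 of these genes were lower and 1 was higher. A match describes the letters in the window and does not show a bound site.

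Complex II, the succinate dehydrogenase, held no call among its 4 genes. Sdhb, the iron-sulfur subunit, had the most negative value of the 4, at 496, 574 and 305 CPM in WT and 264, 439 and 314 CPM in Sirt6 KO (log2 fold change -0.43 ± 0.28 SE, adjusted p = 0.296, edgeR). WT 3 was below KO 2 and KO 3. Sdha, the flavoprotein that oxidizes succinate, was at 998 ± 163 CPM in WT and 995 ± 167 CPM in Sirt6 KO (SD, n = 3; log2 fold change -0.0044 ± 0.19 SE). Sdhc and Sdhd, the membrane anchors, differed by -0.064 ± 0.19 and -0.028 ± 0.18 (log2, SE). For all 4 genes KO 2 was the highest KO library and WT 3 the lowest WT library.

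Complex III, the cytochrome bc1 complex, held a gene in each direction among its 9, too few for a share to be read against all genes. Uqcrb, a small subunit that takes part in ubiquinone binding, fell from 323, 391 and 292 CPM in WT to 186, 239 and 207 CPM in Sirt6 KO (log2 fold change -0.67 ± 0.16 SE, adjusted p = 0.0325, edgeR). Uqcr10, another small subunit, rose from 167, 165 and 150 CPM to 223, 251 and 217 CPM (log2 fold change 0.52 ± 0.12 SE, adjusted p = 0.0279, edgeR). In neither gene did the groups overlap. Their GC contents differed, at 40.4% for Uqcrb and 53.7% for Uqcr10, and after GC correction the log2 fold changes were -0.36 (adjusted p = 0.190, edgeR) and 0.37 (adjusted p = 0.0866, edgeR).

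The subunits of complex III that carry electrons did not pass. Uqcrfs1, the Rieske iron-sulfur protein, was at 547, 666 and 411 CPM in WT and 350, 514 and 384 CPM in Sirt6 KO (log2 fold change -0.38 ± 0.22 SE, adjusted p = 0.261, edgeR). Cyc1, the cytochrome c1 that hands electrons to cytochrome c, was at 394 ± 88.2 CPM in WT and 390 ± 74.5 CPM in Sirt6 KO (SD, n = 3). The median over complex III was -0.017, and all 9 genes had KO 2 as the highest KO library and WT 3 as the lowest WT library.

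Cycs, cytochrome c, the mobile carrier between complexes III and IV, was at 554, 640 and 472 CPM in WT and 293, 375 and 321 CPM in Sirt6 KO. All 3 KO libraries lay below the lowest WT library, and the mean fell by 40.6% (log2 fold change -0.75 ± 0.16 SE, adjusted p = 0.0266, edgeR). After GC correction the log2 fold change was -0.45 (adjusted p = 0.124, edgeR), and its transcript had a GC content of 40.8%. Within the libraries with Hbb-bt (2 WT, 1 KO) the difference was -0.67 on the log2 scale. Within those without it (1 WT, 2 KO) the difference was -0.62, so each value rests on 1 library in 1 of the groups. Reads from near-identical processed copies, which are known for Cycs and several short subunits, could have been counted with or apart from these genes, and how the counting treated them is not given in the sources used here.

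Complex IV, the cytochrome c oxidase, held no call among 17 genes, and its median log2 fold change was -0.058. Cox7c was the gene whose KO libraries were all below WT (-0.43 ± 0.15 SE, adjusted p = 0.0917, edgeR), and it was chosen after its values were seen. Its GC content was 38.4%, and its log2 fold change was -0.062 after GC correction (adjusted p = 0.824, edgeR). Cox7a1, the muscle and heart form of subunit 7a, had the most negative value, at 161, 162 and 111 CPM in WT and 85.1, 138 and 97.0 CPM in Sirt6 KO (log2 fold change -0.44 ± 0.22 SE, adjusted p = 0.208, edgeR). Cox4i1, the common form of the regulatory subunit 4, was at 512 ± 74.5 CPM in WT and 532 ± 97.1 CPM in Sirt6 KO (SD, n = 3). Cox5b, which sits on the matrix side, was at 229, 246 and 195 CPM in WT and 238, 323 and 286 CPM in Sirt6 KO (log2 fold change 0.34 ± 0.16 SE, adjusted p = 0.165, edgeR), and passed with the beta-globin split as a covariate (0.44, adjusted p = 0.0425, edgeR). Ndufa4 was at 458 ± 49.3 CPM in WT and 376 ± 49.0 CPM in Sirt6 KO (SD, n = 3; log2 fold change -0.29 ± 0.15 SE). Cox7a2l, a factor linked to supercomplexes of complexes III and IV, differed by -0.12 ± 0.10 (log2, SE).

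Subunits 4, 6a, 7a and 8 of complex IV exist in alternative forms, and the ratio of the forms was compared within each library on the TPM scale, without a test. The muscle form Cox6a2 exceeded the liver form Cox6a1 by 39.7 ± 8.08 times in WT and 45.8 ± 9.79 times in Sirt6 KO (SD, n = 3). The muscle form Cox7a1 exceeded Cox7a2 by 2.45, 2.17 and 1.96 times in WT and by 1.62, 2.02 and 1.65 times in Sirt6 KO, so that KO 2 lay above WT 3. Cox8b exceeded Cox8a by 11.1 ± 3.68 times in WT and 12 ± 3.06 times in Sirt6 KO. Cox4i1 exceeded Cox4i2, a form induced by hypoxia, by 749 to 1640 times in WT and 585 to 751 times in Sirt6 KO, but Cox4i2 was at only 0.562 ± 0.265 CPM in WT and 0.815 ± 0.195 CPM in Sirt6 KO. Ndufa4l2 was likewise low, at 2.22 ± 0.978 CPM in WT and 2.44 ± 0.772 CPM in Sirt6 KO, and the ratio of Ndufa4 to it lay between 205 and 723. The groups overlapped for each of these 5 ratios.

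Complex V, the ATP synthase, had the lowest median of the 5 complexes, -0.23, and 10 of its 15 log2 fold changes were negative, but no gene passed. Its genes were the most abundant, with Atp5b at 3580 TPM and Atp5a1 at 2498 TPM in WT, the highest of the 91. Atp5b, the catalytic beta subunit, was at 3212, 3387 and 2499 CPM in WT and 2238, 3028 and 2425 CPM in Sirt6 KO (log2 fold change -0.24 ± 0.20 SE, adjusted p = 0.414, edgeR). KO 2 was above WT 3 here and for Atp5a1, the alpha subunit (-0.059 ± 0.20, log2, SE). The 4 genes of the peripheral stalk had a median of -0.41. Atp5f1, its b subunit, was at 817, 950 and 684 CPM in WT and 490, 681 and 554 CPM in Sirt6 KO (log2 fold change -0.51 ± 0.18 SE, adjusted p = 0.0988, edgeR). Its groups were apart by a narrow margin, KO 2 against WT 3, and the log2 fold change was -0.11 after GC correction. Atp5o, which links the stalk to the catalytic head, was at 462 ± 66.1 CPM in WT and 464 ± 54.9 CPM in Sirt6 KO (SD, n = 3), and its fold change of 0.0064 turned to -0.12 after a correction for transcript length. Atp5d, the delta subunit of the central stalk, had the most positive value, 0.25 ± 0.14 (log2, SE), which was -0.0023 after GC correction.

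The c ring of complex V is built from 1 mature protein encoded by 3 genes. Atp5g3 was at 498, 574 and 357 CPM in WT and 322, 414 and 315 CPM in Sirt6 KO (log2 fold change -0.44 ± 0.21 SE, adjusted p = 0.166, edgeR). Atp5g1 differed by -0.23 ± 0.20 and Atp5g2 by -0.0033 ± 0.11 (log2, SE). Atp5g3 was the most abundant of the 3, exceeding Atp5g1 by 1.26 ± 0.0717 times in WT and 1.10 ± 0.127 times in Sirt6 KO, and Atp5g2 by 2.59 ± 0.729 and 1.87 ± 0.222 times (TPM, SD, n = 3), and the groups overlapped for both ratios.

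Atp5s and Atp5sl, which are not subunits of the ATP synthase, had negative fold changes. Atp5s was at 16.3, 18.4 and 17.8 CPM in WT and 10.1, 11.9 and 10.9 CPM in Sirt6 KO (log2 fold change -0.68 ± 0.12 SE, adjusted p = 0.0166, edgeR). WT 1 was its lowest WT library, and the groups did not overlap. Its log2 fold change was -0.36 after GC correction (adjusted p = 0.0970, edgeR). Atp5sl, known to act in assembly of the complex I membrane arm, was at 44.8 ± 8.67 CPM in WT and 33.7 ± 7.39 CPM in Sirt6 KO (SD, n = 3) and did not pass (-0.41 ± 0.20 SE, adjusted p = 0.177, edgeR).

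The fold changes of the OXPHOS genes varied with the GC content of their transcripts, as did those of all genes. Spearman's rho between log2 fold change and GC content was 0.474 across the 91 genes and 0.334 across 13711 genes. These are correlations across genes of the same 6 libraries, and genes are not independent replicates. The 18 members under 45% GC had a median log2 fold change of -0.36, beside -0.27 for all genes in that range, and 5 of the 8 lower calls were among them. The 26 members from 45% to under 50% had a median of -0.13, beside -0.075, and held the other 3. The 29 members from 50% to under 55% had a median of -0.058, beside 0.11, and the 18 members at 55% or more had a median of 0.050, beside 0.23; these held the 3 higher calls. In each range the members' median was below that of all genes, and after GC correction the median over the 91 was -0.15, beside -0.0090 over all genes in that fit. The part of GC content in the calls was not tested further than by this correction.

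**Figure D5:**
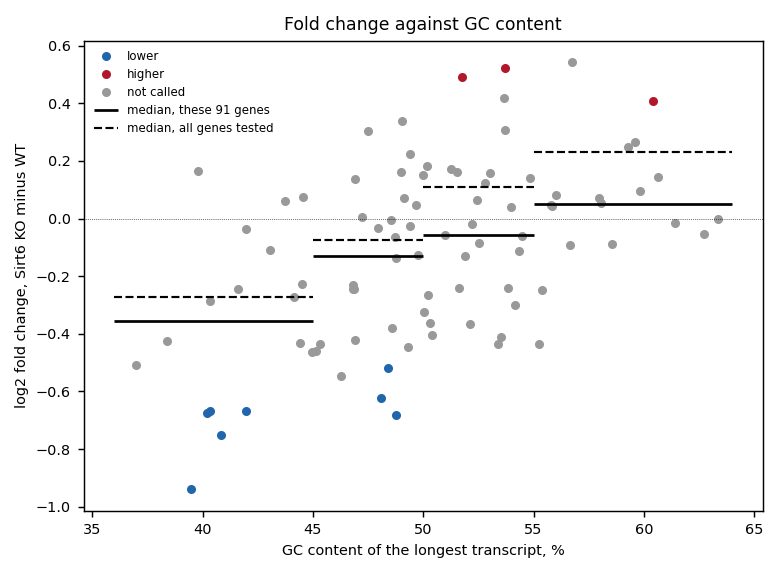
Log2 fold change (Sirt6 KO minus WT) of the 91 genes against the GC content of the longest transcript in percent, with genes that passed the test in color. The solid lines are medians of the 91 genes and the dashed lines medians of all genes tested, in 4 ranges of GC content; both step upward with GC content, from -0.36 and -0.27 under 45% to 0.050 and 0.23 at 55% or more.

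Beyond the subunits, 64 of 67 listed genes for assembly, coupling and control of the pathway were tested, of which 8 (12.5%) were lower and 4 (6.25%) higher, against 8.39% and 7.85% of all genes, with a median log2 fold change of -0.11. The 3 with the smallest adjusted p among the lower were Timmdc1, a complex I assembly factor (-0.77 ± 0.11 SE, adjusted p = 0.0131, edgeR), Ttc19, which acts in complex III (-0.67 ± 0.11, adjusted p = 0.0148, edgeR), and Tfb2m, a mitochondrial transcription factor (-0.62 ± 0.11, adjusted p = 0.0163, edgeR). Timmdc1 was at 34.9, 34.8 and 33.7 CPM in WT and 19.9, 22.1 and 18.5 CPM in Sirt6 KO, with no overlap and with little spread among the WT libraries. The 3 among the higher were Coa5, for complex IV assembly (0.65 ± 0.12, adjusted p = 0.0174, edgeR), Polrmt, the mitochondrial RNA polymerase (0.76 ± 0.14, adjusted p = 0.0179, edgeR), and Atpif1, the inhibitor of ATP synthase (0.57 ± 0.11, adjusted p = 0.0206, edgeR). Hccs, the lyase that attaches heme to cytochrome c and the sole gene listed for that step, was lower as Cycs was (-0.85 ± 0.23, adjusted p = 0.0450, edgeR), at 44.3 ± 11.3 CPM in WT and 24.6 ± 5.63 CPM in Sirt6 KO (SD, n = 3). After GC correction Timmdc1, Ttc19 and Coa5 still passed, while Tfb2m (-0.37, adjusted p = 0.0729, edgeR), Polrmt (0.50, adjusted p = 0.0704, edgeR), Atpif1 (0.40, adjusted p = 0.0668, edgeR) and Hccs (-0.51, adjusted p = 0.190, edgeR) did not. With 1 library left out, Hccs and Atpif1 passed in 1 of 6 fits and Timmdc1 in 4. Of the 9 further complex I assembly genes tested, 1 was lower, of 6 for complex III 2 were lower, of 23 for complex IV 1 was lower and 2 were higher, of 4 for complex V 1 was higher, and of 4 for complex II and 4 coupled carriers and uncoupling proteins none passed. Of 13 regulators, 3 were lower and 1 was higher. These groups are too small for their shares to be read against those of all genes.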

How the data were processed

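RNA-seq of GAS muscle from 6 mice, 3 per group and 1 library per mouse, was analysed from 1 table. The authors supplied whole-number counts for each gene, not normalized between libraries. They also deposited FPKM values, relative to gene length and library size, and TPM values, which further sum to the same total in each library. Reads were paired, of 100 bp. The submitters' processing notes name HISAT2 2.1.0, Bowtie2 2.3.4.1 and StringTie 2.1.3b on mm10, whereas the reporting summary names STAR. The methods and the labels name different TruSeq kits, and the use of strand in counting is not given in the sources used here.

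The test on counts used edgeR 4.0.16 under R 4.3.3 (filterByExpr, TMM, quasi-likelihood test, Benjamini-Hochberg adjustment over 13801 genes). Standard errors were derived from the test. CPM carries the TMM factors, which lay between 0.909 and 1.11. Exact permutation tests were two-sided on log2 levels. p-values from the fits set the difference between the groups against the spread among libraries within a group, for these 6 libraries. The alternatives were DESeq2 1.42.0, its size factors, no filter, at least 10 counts in every library, limma 3.58.1 on log2(FPKM + 1) and log2(FPKM + 0.1) for genes with FPKM above 1, corrections for GC content and for length (lowess per library, span 0.3; GENCODE M21 longest transcript, 99.3% of the genes tested), the replicate number as a block, and leaving out each library. The mean log2(CPM + 1) of the slow muscle genes, and presence of Hbb-bt, as covariates were added after the data were seen. TPM values were used for shares and ratios. The edgeR fits (alone, with the replicate block, with GC correction and with length correction), DESeq2 and limma on log2(FPKM + 1) were tested on simulated data. The other fits and steps were not.

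The members, the pathway and marker lists and the tests were chosen with earlier results of these data known. Named genes are Cycs, Cyc1, the Sdh genes, 6 genes that the study measured by qPCR (Sdhb, Atp5o, Cox5b, Cycs, Ndufs1, Ndufv2), the complex I core subunits, isoform pairs, Cox7a2l, Uqcrfs1, Atp5a1, Atp5b and Cox4i1, in each group up to 5 genes per direction that passed or otherwise the most negative and most positive, and up to 3 pathway genes per direction. Coordinates and promoters are those of RefSeq on GRCm38.p6, of which mm10 is the same assembly. Results of some single genes are not reported here. Groups followed the labels; the labels give no batch.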

Additional observations from a re-analysis of the deposited data

How the results depend on the processing

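With 3 libraries per group, the counts of calls rested on single libraries. Among the OXPHOS genes, 8 were lower and 3 higher; with 1 library left out, between 0 (without KO 1 or KO 3) and 17 (without WT 3) were lower and between 0 and 4 higher, and over the pathway list between 0 and 13 were lower and between 0 and 11 higher, against 8 and 4. Over all genes tested, 8 passed without KO 1 and 13 without KO 3, against 2242 with all libraries, and 4582 without WT 3. GC correction left 2 lower and 0 higher members, and 4 lower and 1 higher pathway genes, against 3.52% and 3.41% of all genes. No filter on low counts gave 5 (5.49%) lower members, against 5.21% of all genes, and length correction gave 1 (1.1%) higher member, against 7.62%. DESeq2 gave 7 higher pathway genes, with 9.69% of all genes higher. Limma gave 8 with either pseudocount, with 13.7% (log2(FPKM + 1)) and 13.6% (log2(FPKM + 0.1)) of all genes higher. The slow muscle genes as a covariate gave 18 (19.8%) lower and 7 (7.69%) higher members, against 14.7% and 14.3% of all genes. That covariate gave 14 lower and 8 higher pathway genes. The beta-globin split gave 7 (7.69%) higher members, against 8.56% of all genes. The replicate block gave 7 (7.69%) lower and 2 (2.2%) higher members, against 7.38% and 6.55% of all genes. Same-numbered libraries had correlations of -0.15, 0.36 and 0.24 between their deviations from the group means, below 0.1 for 1 pair. With 3 libraries per group, these values cannot settle whether the replicate numbers pair the samples. The replicate block with GC correction gave 2 lower and 0 higher members and 2 lower and 1 higher pathway genes. Over all genes in that fit, 2.35% were lower and 1.79% higher. The causes were not tested, beyond the fewer libraries in the fits that leave one out.

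The median of the complex I assembly factors lay between -0.21 and -0.038 with 1 library left out. The log2 fold change of Cycs was -0.45 after GC correction, with or without the replicate block. Of 810 values of named members under the alternatives, 651 kept their direction and their side of the threshold, 78 kept their direction and lost their call, 10 kept it and gained one, and 71 changed sign. The changes of sign lay in 17 genes, none of which passed the test in either fit.

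After GC correction the log2 fold changes that changed sign were Sdha 0.011, Ndufs8 -0.042, Cox4i1 -0.18, Cox6a2 -0.0056, Cox8b -0.16, Ndufa4 0.026, Ndufa4l2 -0.12 and Atp5d -0.0023. With the replicate block and GC correction they were Sdha 0.012, Ndufs8 -0.046, Cox4i1 -0.19, Cox8b -0.16, Ndufa4 0.025, Ndufa4l2 -0.066 and Atp5d -0.0090. After length correction they were Atp5o -0.12, Cox4i1 -0.083, Cox6a2 -0.013 and Cox8b -0.038. With the slow muscle genes as a covariate they were Cyc1 0.067, Sdha 0.050, Sdhd 0.034, Cox6a1 0.019, Cox8a 0.017 and Atp5a1 0.0024. With the beta-globin split they were Cyc1 0.16, Sdha 0.12, Sdhc 0.079, Sdhd 0.11, Ndufv1 0.063, Cox6a1 0.13, Cox8a 0.13 and Atp5a1 0.071. Without a filter they were Sdha 0.0040 and Atp5g2 0.0033, with DESeq2 Atp5g2 0.0020, and with limma Atp5a1 0.015 for either pseudocount.

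With 1 library left out, the range of the log2 fold change crossed 0 for Atp5a1 (-0.19 to 0.063), Atp5g2 (-0.044 to 0.065), Atp5o (-0.090 to 0.11), Cox4i1 (-0.092 to 0.15), Cox6a1 (-0.31 to 0.11), Cox8a (-0.30 to 0.056) and Cyc1 (-0.18 to 0.13). It also did so for Ndufa4l2 (-0.18 to 0.40), Ndufs8 (-0.038 to 0.30), Ndufv1 (-0.24 to 0.055), Sdha (-0.12 to 0.12), Sdhc (-0.21 to 0.074) and Sdhd (-0.15 to 0.098).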

Other observations

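The complexes differed in their share of the RNA. In WT, complex V took 2.1% ± 0.474 of all TPM, complex I 1.87% ± 0.342, complex IV 1.59% ± 0.329, complex III 0.803% ± 0.191, complex II 0.269% ± 0.0790 and cytochrome c 0.0402% ± 0.00918 (SD, n = 3). In Sirt6 KO the same shares were 1.72% ± 0.216, 1.65% ± 0.174, 1.35% ± 0.146, 0.679% ± 0.0891, 0.219% ± 0.0376 and 0.0218% ± 0.00232. Cytochrome c was apart between the groups, at 0.0435%, 0.0472% and 0.0298% in WT and 0.0201%, 0.0244% and 0.0208% in Sirt6 KO. The complex I assembly factors were also apart, at 0.0242%, 0.0227% and 0.0189% in WT and 0.0163%, 0.0167% and 0.0170% in Sirt6 KO. Among these 7 factors, Ndufaf1 and Ndufaf4 had the largest falls in mean TPM, from 54.2 to 33.6 and from 43.4 to 20.8. The log2 fold changes were positive for 3 of the 7, so the summed share does not describe each factor. The shares of the 5 complexes overlapped. Ndufs5, an accessory subunit chosen here after its values were seen, was listed at 43.9 TPM in WT, the lowest level of the 36 complex I genes, whose median was 492 TPM.

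Markers of other fibers and cells varied among the libraries as summed CPM. Myh2, the myosin of oxidative fast fibers, was at 3730, 5220 and 1260 in WT and 1310, 2690 and 1570 in Sirt6 KO. Erythroid genes were at 297, 291 and 56.1 in WT and 136, 181 and 97.6 in Sirt6 KO. Adipocyte genes were at 46.2, 54.6 and 4.76 in WT and 15.5, 123 and 55.1 in Sirt6 KO, and brown fat genes at 1.23 or less in every library. Endothelial genes lay between 130 and 245, macrophage genes between 17.8 and 65.0, fibroblast genes between 541 and 985 and Schwann cell genes between 24.3 and 69.1. The heart list was at 62.3, 51.8 and 1.2 in WT and 5.74, 42.1 and 9.19 in Sirt6 KO, all of it Myh6. The part of any of these in the OXPHOS levels was not tested.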
